A study of Mus musculus with 20 samples.

Results

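The mitochondrial ribosomal protein genes, named Mrpl for the large and Mrps for the small subunit, were followed in liver and kidney of mice given a chemical reprogramming cocktail or its solvent. Members were the protein-coding genes whose GENCODE symbol is Mrpl or Mrps, a number and at most 1 letter, a rule that uses no measured value. It found 78 members among the 57010 genes of the count table, 49 named Mrpl and 29 named Mrps. RNA was sequenced from 10 livers and 10 kidneys of male UM-HET3 mice, outbred animals from a cross of inbred strains, at 12 months of age, and the labels do not say which liver and kidney came from the same mouse. For 28 days an osmotic minipump gave the 7c cocktail (6 libraries per organ) or the vehicle, 50% DMSO and 50% PEG300 (4 libraries per organ). The cocktail held repsox, tranylcypromine, DZNep, CHIR99021, forskolin and TTNPB at 0.1 mg/kg/day each, and valproate at 1 mg/kg/day. No group carried an engineered allele, and the groups differed only in tissue and in what the pump held. The comparisons ask whether 7c changed these genes in either organ and how liver and kidney differ in them.

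Mitochondria keep a ribosome of their own, which makes the few proteins encoded by mitochondrial DNA, all of them core subunits of oxidative phosphorylation. Its RNA comes from the mitochondrial genome, whereas all of its proteins are encoded in the nucleus, made in the cytosol and imported. It grew out of a bacterial ribosome and gained many proteins that bacteria lack. Liver and kidney are both rich in mitochondria, the kidney above all in the proximal tubule and thick limb, where oxidation drives salt transport. The symbols follow history rather than structure. The large subunit held 51 of the members, including Mrps18a and Mrps30 despite their names, and the small subunit held 26. Mrps36 is not a ribosomal protein at all but an adaptor of the 2-oxoglutarate dehydrogenase complex of the citric acid cycle.

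Features of the start sites, which the rule did not use, were counted over 250 bases before to 50 bases after the canonical start in GRCm39. The letters CCGGAAG, a core that ETS-family factors such as GABP bind, stood on either strand in 24 of 78 members (30.8%), against 13.45% of 14756 expressed protein-coding genes. In 27 of 78 members (34.6%) another gene started on the opposite strand within 1000 bases, against 12.0% of expressed genes. AAGATGGC, the core of YY1, stood in 6 members (7.69% against 3.08%), and the NRF1 palindrome in 1 (1.28% against 1.58%). CCAAT stood in 34.6% of the members against 39.2%, and the E-box CACGTG in 6.41% against 9.38%. The stretches that follow are 30 bases each from just upstream of the canonical start of 7 members whose values are described later and that hold the ETS core there, in gene direction, with the core or its reverse complement in capitals.
Mrpl22, chr11:58062426-58062455 (+): cttttccggtcCCGGAAGccggcctcggac
Mrpl27, chr11:94544551-94544580 (+): gtccgcaagacCCGGAAGtagatctatccc
Mrpl34, chr8:71917522-71917551 (+): aactacagctcCCGGAAGgccccgcggcaa
Mrpl51, chr6:125169062-125169091 (+): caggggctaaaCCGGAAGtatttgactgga
Mrpl52, chr14:54664308-54664337 (+): caagatgtcggCTTCCGGttttcccggcag
Mrpl58, chr11:115294541-115294570 (+): cagccaaggctggcggaccgCCGGAAGagt
Mrps18c, chr5:100946458-100946487 (+): gggtcacgtgaCTTCCGGcccgggaagcgc
The core began 10 bases before the start in Mrpl58 and 51 bases before it in Mrpl51. Mrpl46 and Mrps11, both members, were transcribed away from each other from starts 30 bases apart, and the interval between the starts, in the direction of Mrps11, is shown because 1 stretch serves a large and a small subunit gene.
Mrpl46 and Mrps11, chr7:78432838-78432866 (+): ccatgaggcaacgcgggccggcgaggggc

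Libraries held 28383359 to 34153084 counts in liver and 27855849 to 64872451 in kidney. The tissue labels held up against the markers of each organ. Albumin (Alb) lay at 62725 to 97839 depth-scaled counts (CPM) in livers, and the tubule genes Kap, Slc34a1 and Umod had 0 counts in all of them. Of the 78 members, 77 passed the filter of 10 or more counts in 50% or more of an organ's libraries, in liver and in kidney alike, and each had 151 to 17299 counts in every library. The exception was Mrpl53 (chromosome 6, 83085887 to 83088572, + strand), a large subunit gene with 1 count, in the kidney of vehicle replicate 1, and 0 counts in the other 19 libraries. A count of 0 allows up to 3 counts, or 0.0366 to 0.136 CPM at these depths, for counting error only. Reads lost through the annotation or the counting rules lie outside this limit, and such loss was not tested. The members took 0.228% to 0.273% of all counts in livers and 0.325% to 0.512% in kidneys, without overlap, a share that also moves with the few very abundant transcripts of each organ.

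Among the kidneys, those of 7c replicate 5 and vehicle replicate 2 stood apart in these genes. Their members lay a median of 0.50 and 0.53 log2 units above each gene's kidney median, and the other 8 kidneys between -0.20 and 0.20. They were the 2 highest kidneys in 56 of 77 members (72.7%), against 16.2% of 17749 kidney genes, a description only, since both were picked for their member values. Kap, an androgen-regulated gene of the proximal tubule, was also highest in them, at 48544 and 41697 CPM against 18833 to 30505 CPM in the other 8 kidneys. The other 5 proximal tubule markers summed to 10008 and 10607 CPM there, inside the 9299 to 11173 CPM of the others. The 4 thick limb and distal tubule markers summed to their lowest levels in this pair, at 2607 and 2709 CPM against 3162 to 3816 CPM. The 13 mRNAs encoded by mitochondrial DNA went the other way in 7c replicate 5, the lowest kidney at 33640 CPM, and not in vehicle replicate 2, at 59067 CPM in a range of 47771 to 70285 CPM for the other 8. Over 14368 protein-coding genes the deviation of a kidney correlated with coding GC content at r = 0.26 in 7c replicate 5 and 0.14 in vehicle replicate 2, and at -0.27 to 0.18 in the others. With log2 coding length it correlated at -0.25 and -0.22, the lowest of the 10 kidneys, against -0.16 to 0.20 in the others. The part of cell makeup, GC content or coding length in these kidneys was not tested, and in bulk tissue fewer cells of a type cannot be told apart from less RNA per cell. Livers were more alike, with member medians between -0.14 (7c replicate 2) and 0.13 (7c replicate 1).

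**Figure D1:**
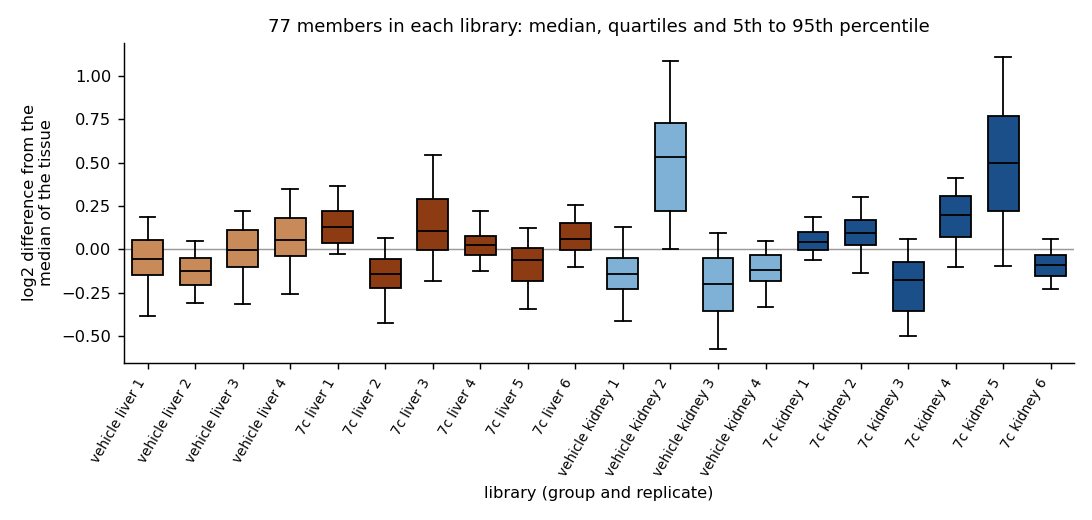
Log2 CPM of the 77 members in each of the 20 libraries, relative to the median of each gene in its tissue. Lines are medians, boxes quartiles and whiskers the 5th to 95th percentile over members, and the kidneys of vehicle replicate 2 (median 0.53) and 7c replicate 5 (0.50) lie above all others.

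The rise in those kidneys was not shared by all members. Mrpl58, a peptidyl-tRNA hydrolase built into the large subunit, read 39.1, 104.0, 30.3 and 37.0 CPM in the 4 vehicle kidneys, and ran from 32.5 through a median of 47.5 to 95.2 CPM (replicate 5) in the 7c kidneys. Mrps10, a small subunit protein, read 20.9, 21.0, 19.2 and 19.8 CPM in vehicle kidneys and 19.1 to 21.1 CPM in 7c kidneys, so that no kidney stood out. Mrps2, another small subunit protein, was at its lowest in the kidney of 7c replicate 5, with 24.9 CPM against 36.8 to 41.7 CPM in the other 7c kidneys. Mrpl1, Mrps18b, Mrps31 and Mrps33 were likewise among the 21 members in which this pair were not both the 2 highest kidneys.

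**Figure D2:**
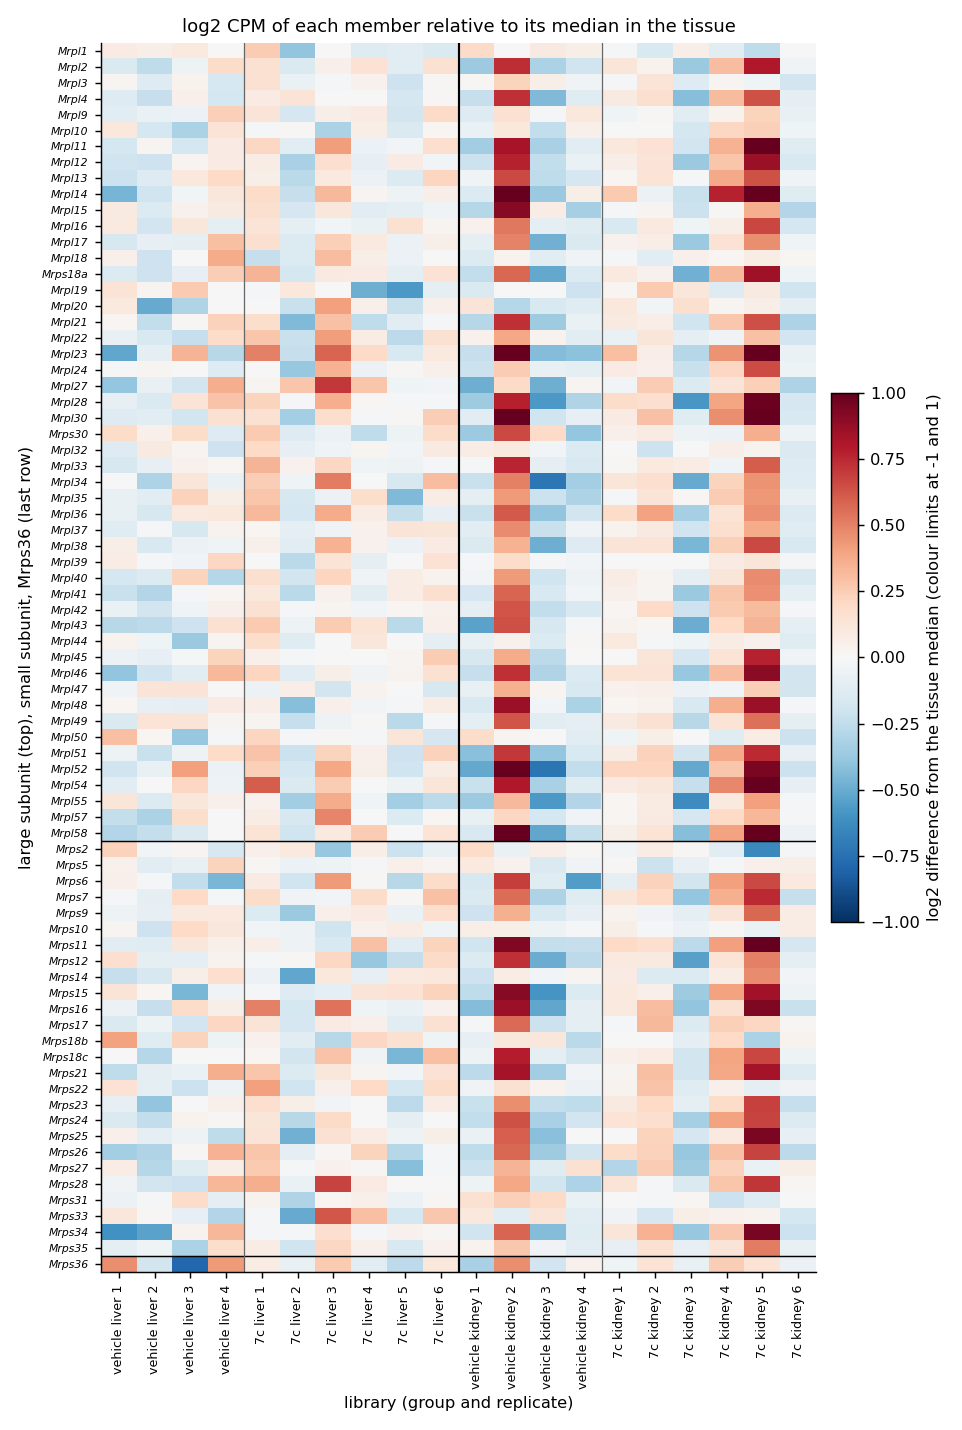
Each row is a member and each column a library, coloured by the log2 CPM of the gene relative to its median in the tissue, with the large subunit above, the small subunit below and Mrps36 last. The columns of vehicle kidney 2 and 7c kidney 5 are red in most rows and pale in rows such as Mrps10 and Mrpl1.

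Levels between genes are comparable only per length, and were set per kilobase of coding sequence and of the canonical transcript, in vehicle mice. Mrpl12, the protein of the flexible stalk that recruits translation factors and a partner of the mitochondrial RNA polymerase, ranked 1 of 78 per coding length in both organs, and 3 per transcript length. In liver it lay at 247 ± 21.1 CPM per kilobase of coding sequence (SD, n = 4), against a median of 56.8 over the 77 members that passed the filter, and in kidney at 362 ± 139 against 55.3. The next gene per coding length was Mrpl51 in liver, at 148 ± 14.9, and Mrpl42 in kidney, at 201 ± 64.0. The liver values of Mrpl51 and of Mrps17, the third at 147 ± 18.3, did not differ beyond their spread, and neither did those of Mrpl42 and Mrps21 (185 ± 80.2) in kidney. Per transcript length Mrps21 and Mrpl42 ranked 1 and 2 in both organs. At the other end Mrpl19 ranked 75 or 76 on either scale in either organ, at 21.0 ± 1.63 in liver and 15.1 ± 1.12 in kidney per kilobase of coding sequence. Among the 77 members that passed the filter, Mrps30 was the lowest in liver (17.4 ± 1.80) and Mrps18b in kidney (13.0 ± 1.62), on the coding scale only. Mrps25 and Mrps18c were low per transcript length, where long annotated untranslated regions enter.

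Between liver and kidney of the vehicle mice, 20 of 77 members were higher in liver and 10 higher in kidney (edgeR quasi-likelihood test, Benjamini-Hochberg adjusted p under 0.05 over 17245 genes). Of all genes tested, 25.7% were higher in liver and 27.7% higher in kidney, 53.4% in all. The liver count was 32 without vehicle replicate 2 and 9 or 10 without replicate 1, 3 or 4, and the kidney count fell to 6 without replicate 1 or 4. The shares of all genes in these refits are not given here, so that these counts cannot be read as particular to the members. In the 7c mice, which that comparison did not use, 24 and 20 members were called, against 30.9% and 34.8% of 17117 genes, 65.7% in all. Of the 30 calls in vehicle mice, 28 were also made in the same direction among the 44 calls in 7c mice, and 73 of 77 members had the same sign in both arms. The median absolute log2 difference was 0.38 over members and 0.83 over all genes in vehicle mice, and 0.39 and 0.82 in 7c mice. In 15 members the 4 vehicle livers all lay above the 4 vehicle kidneys, and in 10 all below, against 25.1% and 28.1% of all genes. In 7c mice 16 and 7 members were separated in this way, against 22.9% and 25.0% of genes. The library names of the livers carry a suffix that those of the kidneys lack, whose meaning is not given in the sources used here.

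**Figure D3:**
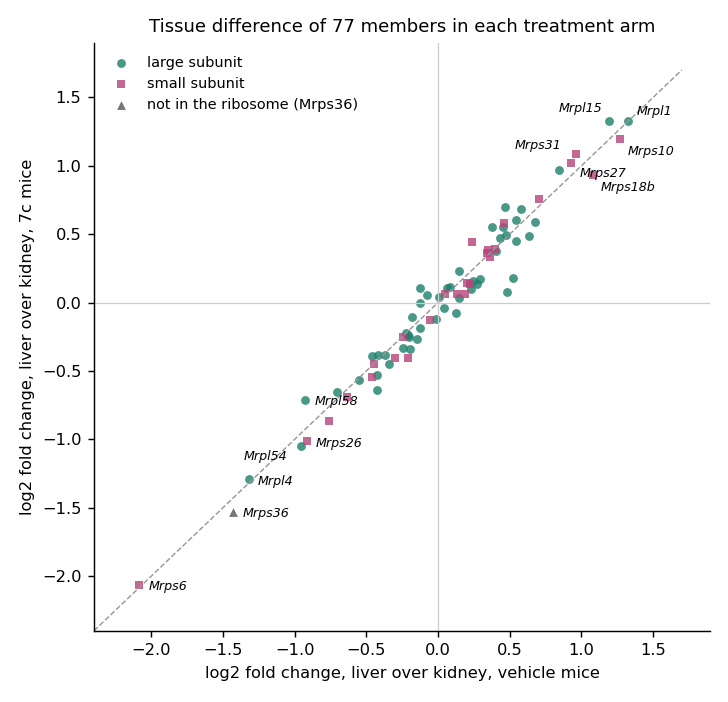
Log2 fold change of liver over kidney for the 77 members in vehicle mice (horizontal) and in 7c mice (vertical), with the large subunit as circles, the small subunit as squares and Mrps36 as a triangle. Points follow the dashed line of equal values, from Mrps6 (-2.08 and -2.07) to Mrpl1 (1.32 and 1.33).

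Of the 6 genes with the largest liver excess, Mrpl1, Mrps10 and Mrpl15 encode proteins with a bacterial counterpart, and Mrps18b, Mrps31 and Mrps27 proteins classed as particular to mitochondria. Mrpl1 (chromosome 5, 96357146 to 96414586, + strand), of the stalk through which spent tRNA leaves, read 47.2, 47.9, 46.8 and 43.8 CPM in vehicle livers and 19.9, 17.6, 18.5 and 18.2 CPM in vehicle kidneys. In 7c mice it ran from 34.5 through 42.0 to 55.2 CPM in livers and from 14.7 through 17.0 to 18.3 CPM in kidneys. No liver reached down to a kidney, and the log2 difference was 1.32 ± 0.12 (SE, edgeR adjusted p = 2.94e-06) in vehicle and 1.33 ± 0.11 (adjusted p = 5.34e-08) in 7c mice. Mrps10 read 48.6, 42.5, 53.6 and 50.7 CPM in vehicle livers, more than any kidney, with log2 differences of 1.27 ± 0.13 (edgeR adjusted p = 7.24e-06) and 1.19 ± 0.08 (4.75e-09). Mrpl15, a core protein of the large subunit, read 81.3, 71.5, 77.2 and 79.9 CPM in vehicle livers and 24.3, 56.5, 31.2 and 23.6 CPM in vehicle kidneys. Its differences were 1.19 ± 0.26 in vehicle and 1.33 ± 0.11 in 7c mice, and the wider error in vehicle mice went with the single kidney of replicate 2. Mrps18b (1.08 ± 0.17), Mrps31 (0.96 ± 0.13) and Mrps27 (0.93 ± 0.16), a small subunit protein with repeats of the RNA-binding pentatricopeptide type, followed, with 0.94, 1.08 and 1.02 in 7c mice.

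In the other direction Mrps6 (chromosome 16, 91854965 to 91909592, + strand), a small subunit protein, read 8.49, 8.38, 6.76 and 5.86 CPM in vehicle livers and 27.1, 49.4, 27.7 and 20.6 CPM in vehicle kidneys. In 7c mice it ran from 6.85 through 8.70 to 10.9 CPM in livers and from 26.8 through 34.4 to 48.3 CPM in kidneys. Every kidney lay above every liver, and the log2 difference of liver over kidney was -2.08 ± 0.27 (edgeR adjusted p = 5.93e-05) in vehicle and -2.07 ± 0.16 (1.57e-08) in 7c mice. Mrps6 shares 404 exon bases (12.6% of its own) on the same strand with Slc5a3, a myo-inositol transporter, at 6.32 ± 1.62 CPM in vehicle livers and 50.2 ± 16.5 CPM in vehicle kidneys (SD, n = 4). How reads in shared bases were counted is not given in the sources used here, and their part in the Mrps6 difference was not tested.

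Mrps36, the citric acid cycle adaptor, read 15.01, 9.80, 6.14 and 14.3 CPM in vehicle livers and 23.6, 41.4, 25.9 and 30.6 CPM in vehicle kidneys, with log2 differences of -1.43 ± 0.28 and -1.53 ± 0.11. Mrpl4, a core protein of the large subunit, read 41.1, 39.4, 45.7 and 39.1 CPM in vehicle livers and 84.0, 165, 72.3 and 90.9 CPM in vehicle kidneys. Livers and kidneys did not overlap in either gene, and the log2 difference of Mrpl4 was -1.32 ± 0.24 and -1.29 ± 0.14. Mrpl54 (-0.95 ± 0.25 and -1.05 ± 0.21) and Mrps26 (-0.92 ± 0.23 and -1.02 ± 0.16) followed. Mrpl58 was called at -0.93 ± 0.34 (edgeR adjusted p = 0.0407) in vehicle mice, where limma-voom gave an adjusted p of 0.0811. The call was also lost with the replicate number as a block (edgeR adjusted p = 0.0643) and without replicate 1 (0.0825) or 4 (0.0562). Its difference was -0.42 without replicate 2 (edgeR adjusted p = 0.0311), and -0.71 ± 0.20 (0.00473) in 7c mice. Mrpl12 differed by -0.55 ± 0.23 (edgeR adjusted p = 0.0592) in vehicle mice and -0.57 ± 0.17 (0.00692) in 7c mice.

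**Figure D4:**
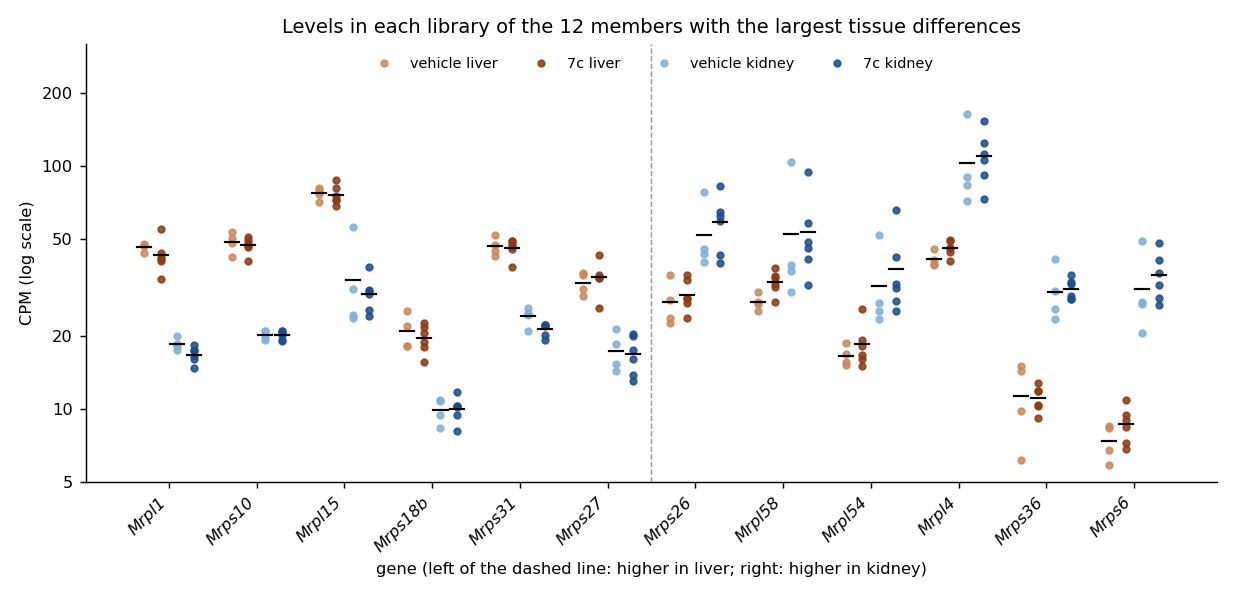
CPM on a log scale of the 12 members with the largest called differences in vehicle mice, in the 4 groups, with a point for each library and a bar at the mean. Mrpl1 livers (34.5 to 55.2 CPM) and kidneys (14.7 to 19.9 CPM) form separate bands, as do those of Mrps6 (5.86 to 10.9 and 20.6 to 49.4 CPM).

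The scaling between the organs sets the direction of the smaller differences. With library size alone in place of TMM scaling, the median of all genes moved from -0.06 to -0.66 in vehicle mice and from -0.08 to -0.70 in 7c mice. The member median moved with it, from 0.08 to -0.50 and from 0.06 to -0.56. The calls of members became 5 higher in liver and 41 higher in kidney in vehicle mice, and 6 and 55 in 7c mice. Of all genes, 13.9% and 47.3% were then called in vehicle mice, and 16.0% and 57.5% in 7c mice. The 12 genes described here kept their direction in both arms under that scaling, with Mrps6 at -2.67 and Mrpl1 at 0.72 in vehicle mice. Of them only Mrps27 lost its call, at 0.33 in vehicle mice (edgeR adjusted p = 0.0843).

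By subunit, 12 of 50 large subunit members were higher in liver and 6 in kidney in vehicle mice, and 8 and 3 of 26 small subunit members, beside 25.7% and 27.7% of all genes. In 7c mice these were 13 and 11 for the large and 11 and 8 for the small subunit, beside 30.9% and 34.8% of all genes, and the median log2 differences of large and small subunit members were 0.05 and 0.10, against 0.05 and 0.20 in vehicle mice. Of 47 members with a bacterial counterpart, 14 were higher in liver and 3 in kidney in vehicle mice, and of 29 members particular to mitochondria 6 and 6, with medians of 0.21 and -0.12. In 7c mice the counts were 17 and 10 against 7 and 9, with medians of 0.12 and -0.12. Mrps18a was classed with the former and Mrps18b with the latter, although both are paralogs of 1 bacterial protein family. The 3 Mrps18 paralogs, which sit in different places of the ribosome, did not move as a group. Mrps18b and Mrps18c were higher in liver (0.71 ± 0.24 for Mrps18c, edgeR adjusted p = 0.0287), whereas Mrps18a of the large subunit was at -0.42 ± 0.22 (0.136) in vehicle mice and lower in livers of 7c mice, at -0.53 ± 0.17 (0.0119). Mrps30 gave -0.12 ± 0.23 (0.682).

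In liver, 0 of 77 members passed the threshold for 7c against vehicle (edgeR, lowest adjusted p = 0.9996), as did 0 by DESeq2 and limma-voom, where 0.00666% of 15012 genes, a single gene that fell, were called. At an unadjusted p under 0.05, 1 member was higher and 0 lower, against 1.81% and 1.95% of genes, 3.76% in all. That member was Mrpl58, which read 25.5, 27.2, 27.6 and 30.5 CPM in vehicle livers and ran from 27.5 through 33.8 to 38.0 CPM in 7c livers. The ranges overlapped in the lowest 7c liver, and the log2 fold change was 0.24 ± 0.11 (edgeR, unadjusted p = 0.0408). Mrpl23, Mrpl27 and Mrpl34, all of the large subunit, had values of 0.30 ± 0.19, 0.27 ± 0.17 and 0.22 ± 0.14. On the lower side Mrpl19 had -0.27 ± 0.15, Mrpl1 -0.13 ± 0.11, Mrpl49 -0.13 ± 0.10 and Mrpl47 -0.11 ± 0.11. No member had livers of 1 group all above or all below the other, against 0.373% and 0.293% of genes. The signs leaned upward, with 54 of 77 members (70.1%) above 0 against 50.4% of genes, and a median of 0.07 against 0.00. Of the 4 red cell markers, 3 were above 0 as well (median 0.77), and skeletal muscle markers summed to 761.6 CPM in the liver of 7c replicate 6 against 0.42 to 2.19 CPM in the other 9 livers. Without that liver 52 members were above 0, with a median of 0.07. The median ran from 0.04 to 0.11 with each mouse left out, and members share libraries, so that these counts are not independent.

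In kidney, 0 of 77 members passed (lowest edgeR adjusted p = 0.997), and 0 by DESeq2 and limma-voom, where 0.0% of 17749 genes were called. At an unadjusted p under 0.05 there were 0 members in either direction, against 1.38% of genes higher and 1.23% lower, 2.61% in all. Kidneys of 1 group all above or all below the other were seen in 0 members, against 0.349% and 0.366% of genes. The median log2 fold change was 0.06 (all genes -0.01), with 56 of 77 members (72.7%) above 0 against 49.0% of genes. The 5 adipocyte markers summed to 8.20 to 44.5 CPM in 7c and 0.448 to 10.6 CPM in vehicle kidneys, all 5 with a log2 fold change above 0 (median 2.14), as were the 4 red cell markers (median 0.82), and 0 of either list passed the threshold. Of the 6 hepatocyte markers 0 were above 0 (median -0.64), and 0 passed. Their part in the signs of the members was not tested. With a trend on coding GC content and length removed, 38 members were above 0 in kidney and 45 in liver. The counts moved with the kidneys that stood apart. Without vehicle replicate 2 the median was 0.30, with 70 members above 0 and 17 at an unadjusted p under 0.05, where 6.79% of genes were called higher at that level, and 0 passed the adjusted threshold (lowest edgeR adjusted p = 0.476). Without 7c replicate 5 the median was -0.03, with 30 members above 0. Without both it was 0.18, with 67 above 0 and 12 at an unadjusted p under 0.05, where 5.01% of genes were called higher (lowest edgeR adjusted p = 0.580).

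The kidney members of lowest p showed how small the differences were. Mrps31, a small subunit protein particular to mitochondria, read 24.3, 26.2, 25.0 and 21.0 CPM in vehicle kidneys and ran from 19.2 through 22.0 to 22.3 CPM in 7c kidneys, at -0.19 ± 0.10 (edgeR, unadjusted p = 0.0935). Mrpl1 was at -0.16 ± 0.10, Mrps2 at -0.15 ± 0.14 and Mrpl3 at -0.10 ± 0.10. On the upper side Mrpl20 read 34.2, 26.0, 28.1 and 28.8 CPM in vehicle kidneys and from 29.3 through 32.6 to 34.99 CPM in 7c kidneys, at 0.14 ± 0.11 (unadjusted p = 0.222). Mrpl27 (0.20 ± 0.17), Mrps28 (0.20 ± 0.19) and Mrpl55 (0.21 ± 0.21) had larger values with larger errors. The median SE of a member was 0.12 in liver and 0.19 in kidney on the log2 scale.

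**Figure D5:**
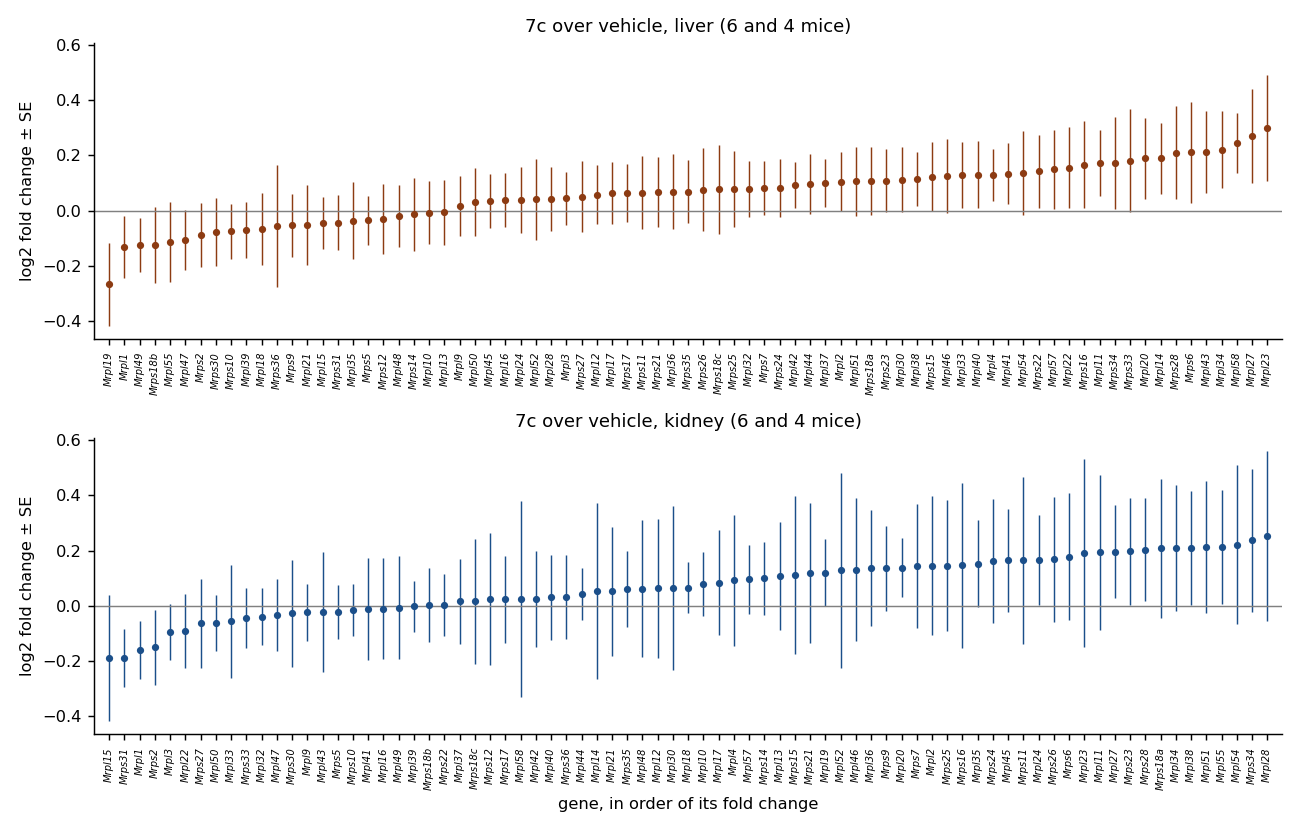
Log2 fold change of 7c over vehicle with its SE for the 77 members, in order of size, in liver above and kidney below. Values run from -0.27 (Mrpl19) to 0.30 (Mrpl23) in liver and from -0.19 to 0.25 in kidney, and 0 members passed the adjusted threshold in either organ.

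The 7c effect did not differ between the organs for any member past the threshold (edgeR interaction test, lowest adjusted p = 0.9999), where 0.00706% of 14163 genes were called, and 0 members had an unadjusted p under 0.05 against 2.49% of genes (1.44% with the 7c effect higher in liver and 1.05% lower). The median difference, liver minus kidney, was -0.02. The lowest p was that of Mrpl19, a core protein of the large subunit, at -0.40 ± 0.19 (edgeR, unadjusted p = 0.0518). It read 18.8, 17.9, 20.2 and 16.8 CPM in vehicle livers and ran from 11.7 through 16.5 to 18.7 CPM in 7c livers, while its kidneys lay at 12.1 to 14.2 and 12.1 to 17.2 CPM. Mrpl55 (-0.34 ± 0.27) and Mrpl22 (0.24 ± 0.21) came next.

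Members varied among themselves in how far they spread between mice. The median SD of log2 CPM was 0.31 in kidney and 0.18 in liver, against 0.35 and 0.30 over all genes, and it was larger in kidney for 58 of 77 members, against 46.3% of genes. Without the kidneys of 7c replicate 5 and vehicle replicate 2 the kidney median was 0.19 (all genes 0.27), and 42 members had the larger SD in kidney. In kidney the widest of each subunit were Mrpl52 of the large subunit (SD 0.61), at 16.9, 52.2, 14.5 and 20.4 CPM in vehicle mice, and Mrps16 of the small subunit (0.51). In liver Mrps36 spread most (0.37), and within the ribosome Mrpl23 (0.36) and Mrps33 (0.32), the latter at 23.1, 22.2, 19.8 and 17.1 CPM in vehicle livers and 15.2 to 32.4 CPM in 7c livers. Mrps33 was narrow in kidney (0.11), and Mrps10 narrow in both organs (0.06 in kidney and 0.13 in liver).

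Liver and kidney libraries carry the same replicate numbers, although the labels do not say that a number is a mouse. For the correlation of the deviations of a gene in liver and in kidney over the 10 numbers, 0 of 77 members passed (exact permutation within groups, lowest adjusted p = 0.252), where 0.0% of 14163 genes did. At an unadjusted p under 0.05, 2 members had a positive and 10 a negative value, against 4.57% and 2.42% of genes, 6.99% in all. Mrpl34, Mrps18c and Mrpl55 had the lowest p, with r of -0.88, -0.80 and -0.80. The kidneys of vehicle replicate 2 and 7c replicate 5, at member medians of 0.53 and 0.50, share their numbers with livers at -0.12 and -0.06. Members share libraries, so that these counts are not independent.

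The other genes of mitochondrial translation were read from lists chosen by function. For 7c, 0 genes passed the edgeR threshold in either organ in any of the 5 lists. These were mitoribosomal proteins under other names (5 tested), assembly factors (25) and translation factors (15). The others were mitochondrial aminoacyl-tRNA synthetases with Gatb, Gatc and Qrsl1 (20) and mRNAs encoded by mitochondrial DNA (13). The lowest unadjusted p in liver was that of Ears2, which charges tRNA with glutamate, at 0.40 ± 0.16 (edgeR, unadjusted p = 0.0245). Of the 13 mRNAs that the ribosome translates, 0 had a value above 0 in 7c kidneys (median -0.26), against 49.0% of genes. Of the 77 members 56 did. The sums of the 13 overlapped, at 33640 to 69937 CPM in 7c and 59067 to 70285 CPM in vehicle kidneys. The lowest sum was that of 7c replicate 5, and the members' count fell without that kidney, as given for kidney above. In liver 4 of the 13 were above 0 (median -0.05), while 54 of 77 members were. These mRNAs are cut from shared precursors of the mitochondrial genome and are not independent of each other.

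Between the organs of vehicle mice, 3 of 20 genes of the synthetase list were higher in liver and 3 higher in kidney. In 7c mice they were 4 and 8. That list also holds Gatb, Gatc and Qrsl1, subunits of an amidotransferase. All genes, the background for this list and those that follow, gave 25.7% and 27.7% in vehicle mice. In 7c mice they gave 30.9% and 34.8%. Nars2, which charges tRNA with asparagine, lay at 35.6 ± 1.89 CPM in vehicle livers and 11.9 ± 1.23 CPM in vehicle kidneys (SD, n = 4), and Rars2, for arginine, at 16.4 ± 2.67 and 40.9 ± 1.86 CPM. Their log2 differences were 1.58 ± 0.13 and -1.32 ± 0.15. Lars2, for leucine, was lower in liver (-1.19 ± 0.28). It lay at 291 ± 126 CPM in vehicle livers and 664 ± 107 CPM in vehicle kidneys, the highest level of its list in either organ. What set that level was not tested. Of the translation factors 5 of 15 were higher in liver and 2 in kidney (7 and 3 in 7c mice), among them the initiation factor Mtif2 (1.12 ± 0.14) and the elongation factor Tsfm (-0.70 ± 0.20). Taco1, an activator of the translation of a cytochrome oxidase subunit, gave 0.84 ± 0.16. Of the assembly factors 6 of 25 were higher in liver and 3 in kidney (5 and 5 in 7c mice), with the rRNA methyltransferases Tfb1m at 0.83 ± 0.23 and Mrm1 at -0.82 ± 0.27 and the GTPase Noa1 at -0.74 ± 0.17. Of the ribosomal proteins under other names, Ptcd3 of the small subunit was higher in liver (0.76 ± 0.14) and 0 of 5 were higher in kidney. Of the mitochondrial mRNAs 0 of 13 were higher in liver and 7 higher in kidney in vehicle mice, led by mt-Co2 (-1.64 ± 0.20). In 7c mice the counts were 1 and 7. Sums of the 13 overlapped, at 41080 to 73034 CPM in vehicle livers and 59067 to 70285 CPM in vehicle kidneys. The most abundant, mt-Co1, averaged 25854 CPM in vehicle livers and 20286 CPM in vehicle kidneys. In vehicle livers mt-Co2, mt-Co3 and mt-Atp6 averaged only 40.6, 40.0 and 24.7 CPM, and the reason for that gap was not tested. With library size alone as the scaling, Ptcd3 (0.14), Tfb1m (0.23) and Taco1 (0.23) were no longer past the threshold in vehicle mice. The calls of Tsfm and Mrm1 were lost without vehicle replicate 1 or 4, and that of Tfb1m without replicate 2 or 4.

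Annotation limits some members. Exons of 60 members overlap another gene, 8 of them on the same strand. Mrps34 shares 47.8% of its exon bases on the same strand with Nme3, a nucleoside diphosphate kinase, which is listed at 0 counts in all 20 libraries. Mrpl54 is covered over 94.4% of its exons by Matk, a kinase gene on the opposite strand. Matk reached 32.1 CPM in the kidney of 7c replicate 3 and 15.6 CPM in the liver of 7c replicate 3, where Mrpl54 read 25.3 and 19.3 CPM, and at most 1.84 CPM in the other 18 libraries. Of 6 processed pseudogenes named after members, Mrpl27-ps had 3058 counts over all libraries and Mrpl48-ps 2770, and how reads that fit a gene and its pseudogene were counted is not given in the sources used here.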

How the data were processed

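PolyA RNA of about 30 mg of tissue, 10 livers and 10 kidneys, was made into stranded libraries. Per the labels, the authors aligned reads with STAR 2.7.11b to GRCm39 and deposited whole-number gene counts from featureCounts 2.0.6, with nothing normalized. The annotation release, strand setting and treatment of shared reads are not given in the sources used here. Gene names came from GENCODE M39 (56310 of 57010 IDs matched, and the other 700 held 0.0417% of counts).

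Counts were tested with edgeR 4.0.16 (quasi-likelihood F-test, TMM, Benjamini-Hochberg over all genes, threshold 0.05, SE as the log2 fold change over the root of F), in each organ for genes with 10 or more counts in 50% or more of its libraries. The interaction used all 20 libraries, and the organ comparisons each arm alone. CPM was scaled by TMM over all 20 libraries, and deviations were taken on log2 CPM (prior count 2, scaled within the organ). Alternatives were RLE scaling, DESeq2 1.42.0, limma-voom 3.58.1, no filter, library size alone, a replicate block and a joint fit. Each replicate number of an arm was also left out, from both organs where both were fitted. Removal of the 2 kidneys that stood apart, and of a trend on coding GC and length, was added after the data were seen. Members and lists were chosen with earlier results of these data known. The fits were tested on simulated data. Named were the 6 largest called members toward each organ, the 4 lowest p in each direction for 7c in each organ, the 3 lowest p of the interaction, the 3 highest and lowest per length, the widest spread per subunit, 7 members set by role and up to 3 genes per list. Members failing the filter were also named, as were the 3 lowest p of the correlation between equal replicate numbers. Outside these rules, and after their values were seen, Mrpl46, Mrps11, Mrps34 and the overlapping genes were named for their position.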

Additional observations from a re-analysis of the deposited data

Results flagged for a closer look

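Of 144 sets of values (36 named members in 4 groups), 17 held a library far from the rest of its group by Dixon's ratio. Chance flags about 1 in 20 independent sets. These sets share libraries and include members named for their spread or level, so that 17 cannot be set against that rate. In the kidney of vehicle replicate 2, 9 members were high. Mrpl12 lay at 343.2 CPM against 167.7 to 191 in the other vehicle kidneys, Mrpl58 at 104.0 against 30.3 to 39.1, Mrpl52 at 52.2 against 14.6 to 20.4 and Mrpl23 at 35.5 against 12.2 to 14.1. Mrpl42 (126.1 CPM), Mrps26 (78.2), Mrpl49 (63.2), Mrpl54 (52.1) and Mrps18c (11.8) were set apart in the same library. In the kidney of 7c replicate 5, Mrps25 (38.4 CPM) and Mrps30 (30.5) were high and Mrps2 (24.9) was low. Among livers, Mrps31 (38.6 CPM) and Mrps25 (11.7) were low in 7c replicate 2, Mrpl42 (62.8) was high in 7c replicate 1, Mrps18a (43.5) was high in vehicle replicate 4 and Mrps18c (11.04) was low in vehicle replicate 2. What set these libraries apart was not tested.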

How the results depend on the processing

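For 7c in either organ and for the interaction, the number of members past the threshold was 0 under every alternative run. With each replicate number of an arm left out, members above 0 in kidney ranged from 30 to 70 and in the interaction from 11 to 61 (main 34). Without 7c replicate 5 and vehicle replicate 2 the interaction had 19. The kidney value of Ptcd3 (-0.05) ranged from -0.156 without vehicle replicate 2 to 0.0195 without vehicle replicate 3 and was called in neither. Between organs in vehicle mice, members higher in liver ranged from 9 to 32 and higher in kidney from 6 to 10 with a replicate number left out. They were 10 and 6 without replicate 1, 32 and 10 without replicate 2, 10 and 8 without replicate 3, and 9 and 6 without replicate 4. In vehicle mice the call of Mrpl58 was lost with limma-voom, with the block and without replicate 1 or 4, and those of Mrm1 and Tsfm without replicate 1 or 4 and of Tfb1m without replicate 2 or 4. The count higher in liver was 11 with no filter on low counts. The shares of all genes in these fits are not given here, so that the counts cannot be read as particular to the members. Library size alone gave 5 and 41 calls, 11 members above 0 and a median of -0.50 in vehicle mice. In 7c mice it gave 6 and 55 calls, 10 above 0 and a median of -0.56. Of all genes it called 13.9% and 47.3% in vehicle mice, and 16.0% and 57.5% in 7c mice. With the GC and length trend removed, the organ medians were 0.46 (vehicle) and 0.40 (7c). The cause of these changes was not tested, beyond fewer libraries in the fits that leave a replicate number out. All other counts and medians stayed within 1.5 times the main count or within the spread between mice.

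The labels do not say that equal replicate numbers in liver and kidney are the same mouse. Deviations of all genes correlated at 0.01 to 0.26 between samples of equal number, and 8 of 10 samples matched best with their own number, a hint from the data. The exceptions were 7c replicate 5 (0.0167, and up to 0.0758 with another number) and vehicle replicate 2 (0.0115 and up to 0.0367). Their kidneys are those that stood apart. With the number as a replicate block, 15 members were higher in liver and 8 in kidney in vehicle mice, 23 and 19 in 7c mice, and 0 passed for 7c in either organ or in the interaction. The shares of all genes with the block are not given here. The median SE of a member was 0.12 (7c in liver) to 0.24 (interaction) on the log2 scale.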
